A study of Mus musculus with 8 samples.

Results

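The 10 genes of autophagy and mitochondrial clearance, Bnip3l, Foxo3, Gabarap, Gabarapl1, Gabarapl2, Map1lc3b, Ulk1, Atg5, Atg7 and Atg16l1, were followed in primitive erythroid cells captured from mouse yolk sacs. They are the first red cells of the embryo, still nucleated, and are made in the yolk sac before the liver takes over blood formation. The genes were chosen by name, and every probe set annotated to one of them was used, which gave 23 of the 22626 probe sets of the array for 10 of 13319 annotated genes. Of these, 20 carry a single gene symbol. The 3 probe sets of Bnip3l are annotated to Bnip3l and to the pseudogene Bnip3l-ps together, so their signal cannot be assigned to one of these.

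Expression was measured on 8 Affymetrix arrays, 4 from embryos labelled KLF2-/- (replicates 11, 12, 13 and 14) and 4 from wild-type FVB/N embryos (replicates 3, 5, 7 and 9), all at embryonic day 9.5. Erythroid cells of both groups were cut by laser from stained frozen sections, and each array pooled 2 to 4 yolk sacs of 2 litters. RNA input to the two-cycle labelling was 10 to 20 ng for the knockout group and 10 to 39 ng for wild type. The captures used 30 to 80 slides for the knockout group and 12 to 50 for wild type. KLF2 is a zinc finger transcription factor of the KLF family, and the comparison asks which genes depend on it in these cells. The series' design text calls the dams heterozygous where the sample labels call them homozygous, and no strain is given for the KLF2 embryos in the sources used here. Strain and genotype therefore cannot be told apart.

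Autophagy encloses cell contents in a double membrane that then fuses with the lysosome. The kinase ULK1 starts the process, ATG7 activates small ubiquitin-like proteins, and the ATG5 and ATG16L1 complex helps attach the ATG8 proteins, LC3 and the GABARAP group, to the growing membrane. BNIP3L, also called NIX, sits on the outer mitochondrial membrane, binds ATG8 proteins and is needed in mice for the loss of mitochondria from maturing definitive red cells. FOXO3 is a transcription factor that acts on autophagy genes in several tissues and on maturation of adult erythroid cells.

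Values are log2 expression as the authors deposited them, and a difference is the knockout mean less the wild-type mean on that scale. Array medians lay between 5.08 and 5.20. Klf2 itself was not lower where it should be absent: its probe set measured 5.38, 5.77, 7.15 and 5.89 in knockout arrays 11 to 14 and 5.18, 5.28, 4.97 and 5.70 in wild-type arrays 3, 5, 7 and 9. The sources used here do not place that probe set relative to the deletion, so the labels could not be checked by it, and groups go by their labels. That difference was 0.77 (SE 0.35, exact permutation p = 0.0571). Of 12 erythroid markers 10 were measured, all with a mean above the median of all probe sets. Their mean level was 9.41 to 10.90 in the knockout-labelled arrays and 9.85 to 10.71 in wild type, lowest in knockout array 13. Visceral endoderm markers (14 of 15 measured) were at 8.85, 9.77, 10.04 and 7.03 in knockout arrays 11 to 14 and at 9.13 to 9.67 in wild type, and 13 of the 14 had a mean above the median of all probe sets. In bulk samples of this kind, fewer cells of a type and less RNA per cell cannot be told apart.

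No member differed between the groups beyond the spread of the arrays after adjustment. By limma with Benjamini-Hochberg adjustment over all probe sets, 0 of the 23 probe sets passed an adjusted p of 0.05, and the adjusted p ran from 0.860 to 0.999. The background was 0% of 22626 probe sets. The lowest adjusted p of all probe sets was also 0.860, so where that value is given for a gene it is a shared floor. At an unadjusted p under 0.05 there were 3 member probe sets, 1 each of Foxo3, Gabarapl1 and Atg16l1, beside 5.40% of all probe sets. Of these, 2 were higher (3.48% of all probe sets were) and 1 lower (1.92% were). The 3 became 0 without knockout array 11 (4.73% of all probe sets), knockout array 12 (4.42%), wild-type array 3 (2.82%) or wild-type array 5 (3.01%). They became 5 without wild-type array 9, where the share of all probe sets was 8.67%. In 0 of the 23 were the groups free of overlap, against 2.99% of all probe sets. Of the 23 differences, 15 were above 0, 65.2% beside 52.2% of all probe sets. Their median was 0.13 and that of all probe sets 0.01. The median SE of a member difference was 0.20, so only differences of a good deal more than that could have been seen with 4 arrays a group.

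**Figure D1:**
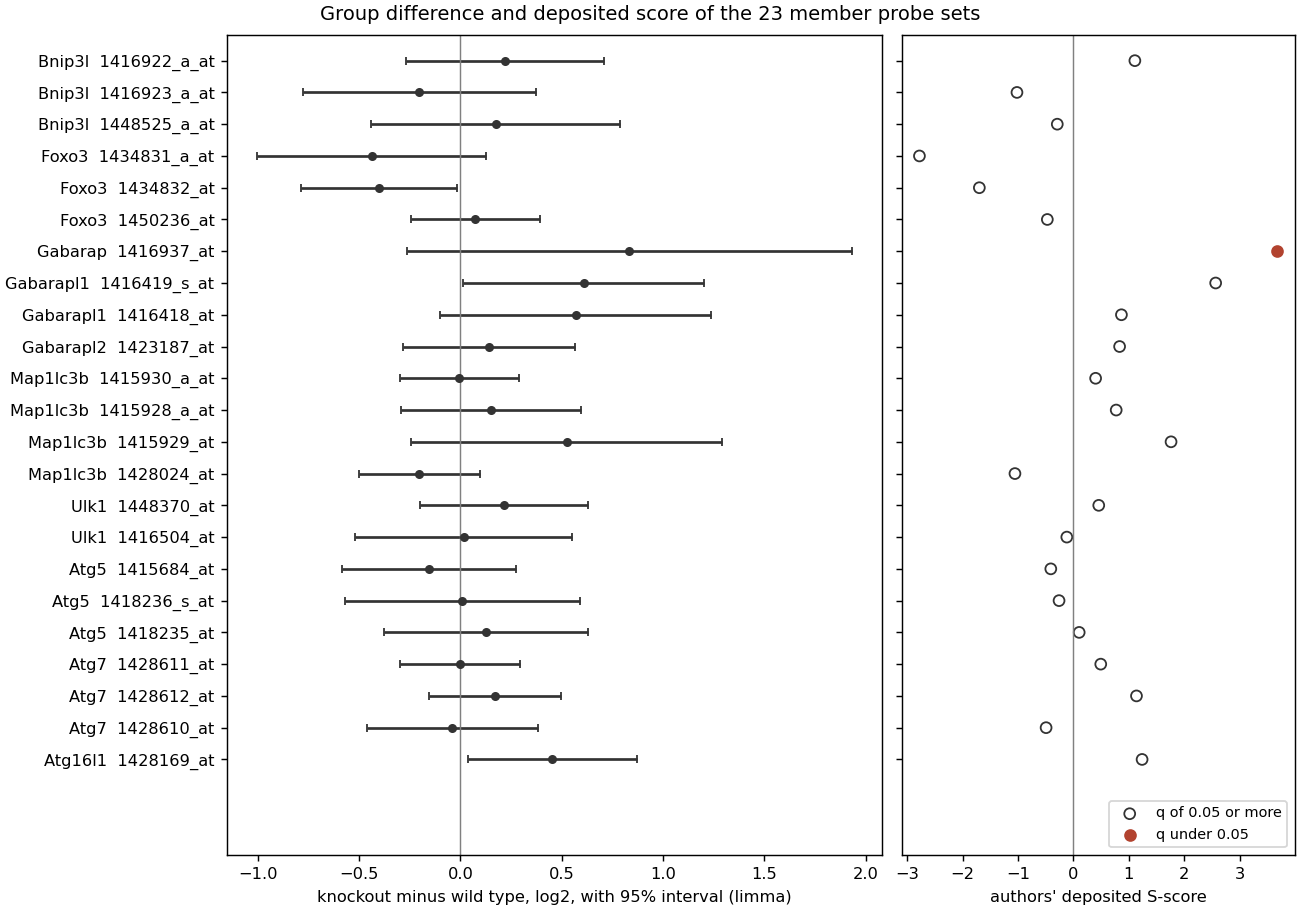
Left, the knockout minus wild type difference (log2) of each of the 23 probe sets with its 95% interval from limma; right, the authors' deposited S-score of the same probe set, filled where its q-value was under 0.05. The 3 intervals of Foxo3 1434832_at, Gabarapl1 1416419_s_at and Atg16l1 exclude 0 before adjustment, and Gabarap alone has a filled score.

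The authors deposited a second readout of the same arrays, a signed score per probe set with its p and q. The score followed the log2 difference across all probe sets (r = 0.796 over probe sets, which are not independent), so positive scores are taken to mean a higher level in the knockout group. The authors' deposited table gives a q under 0.05 to the Gabarap probe set and to none of the other 22, where it does so for 0.968% of all probe sets, 0.504% with a positive and 0.464% with a negative score. Its S-score was 3.67 at a q of 0.0317. Scores next in size in the authors' deposited table were -2.78 for Foxo3 1434831_a_at (q = 0.211) and 2.57 for Gabarapl1 1416419_s_at (q = 0.296). The other 20 member probe sets had scores of at most 1.76 in size in that table. Score and log2 difference had the same sign in 17 of 23.

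Shown first are 3 promoters, those of the members with the largest differences by brightest probe set among the 8 that have one in the promoter table, since KLF factors bind C-rich CACCC and GC boxes. The 8 are all members but Bnip3l and Atg16l1, and each RefSeq promoter (GRCm38.p6) runs from 250 bases before to 50 after the gene's start. Capitals mark CCNCNCCC, a core shared by KLF and Sp binding sites, on either strand, with overlapping matches joined. Foxo3 (chr10:42276646-42276945, minus strand) held 4 matches, Gabarapl1 (chr6:129532942-129533241, plus strand) 3, of which 2 overlap, and Gabarap (chr11:69991120-69991419, plus strand) 0.
Foxo3: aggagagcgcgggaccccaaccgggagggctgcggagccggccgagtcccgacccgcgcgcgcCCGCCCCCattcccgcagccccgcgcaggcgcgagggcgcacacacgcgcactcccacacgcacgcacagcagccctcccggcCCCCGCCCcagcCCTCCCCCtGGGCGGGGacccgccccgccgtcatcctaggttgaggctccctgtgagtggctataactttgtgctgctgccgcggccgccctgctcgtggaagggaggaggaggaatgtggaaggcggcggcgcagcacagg
Gabarapl1: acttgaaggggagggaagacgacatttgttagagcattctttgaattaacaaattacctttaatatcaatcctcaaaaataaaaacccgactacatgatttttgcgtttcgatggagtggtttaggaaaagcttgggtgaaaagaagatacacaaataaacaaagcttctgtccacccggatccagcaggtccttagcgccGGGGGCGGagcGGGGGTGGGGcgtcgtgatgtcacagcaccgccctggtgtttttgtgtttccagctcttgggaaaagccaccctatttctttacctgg
Gabarap: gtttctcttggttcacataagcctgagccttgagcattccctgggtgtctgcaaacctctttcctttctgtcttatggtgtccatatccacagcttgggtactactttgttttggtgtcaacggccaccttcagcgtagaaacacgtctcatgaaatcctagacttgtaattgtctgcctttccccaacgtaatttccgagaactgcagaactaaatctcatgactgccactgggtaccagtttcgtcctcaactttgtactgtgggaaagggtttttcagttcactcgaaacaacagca

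Among the other promoters, Ulk1 held 3 matches, Gabarapl2 and Map1lc3b 1 each, and Atg5 and Atg7 0. At least 1 match was present in 5 of 8 member promoters and in 49.5% of all 32851 promoters of this length. GC content and matches went together only in part. Of the promoters with a match, it was 75.0% for Foxo3, 68.0% for Ulk1 and Map1lc3b, 60.0% for Gabarapl2 and 46.3% for Gabarapl1. Of those with 0, it was 59.3% for Atg5, 45.7% for Gabarap and 42.7% for Atg7. The median over all promoters was 52.7%. The forkhead core GTAAACA, sought on both strands because FOXO3 is a forkhead protein, was found in 0 of the 8 and in 3.65% of all. A match is a run of letters in this window and no more than that.

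Bnip3l, the mitophagy receptor gene, has 3 probe sets, all shared with Bnip3l-ps. It had a mean above the median of all probe sets by each of them, and no common direction. Its brightest probe set, 1416922_a_at, measured 9.78, 9.15, 9.39 and 10.06 in knockout arrays 11 to 14 and 9.09, 9.28, 9.55 and 9.57 in wild-type arrays 3, 5, 7 and 9. The groups overlapped, with knockout arrays 14 and 11 above every wild-type array and knockout array 12 below 3 of them. The difference was 0.22 (95% interval -0.27 to 0.71, limma adjusted p = 0.905, exact permutation p = 0.371). It was 0.066 without knockout array 14, 0.37 without knockout array 12, 0.13 without wild-type array 3 and 0.032 without wild-type arrays 3 and 5. Probe set 1416923_a_at differed by -0.20 (SE 0.25) and 1448525_a_at by 0.17 (SE 0.27). All 3 were highest in knockout array 14, at 10.06, 9.38 and 7.67, the array with the highest erythroid marker mean (10.90) and the lowest visceral endoderm mean (7.03). All 3 were lowest or second lowest in knockout array 12, where the erythroid mean was 10.22 and the visceral endoderm mean 9.77. Knockout array 13 had the lowest erythroid mean (9.41) and the highest visceral endoderm mean (10.04). There the 3 probe sets measured 9.39, 8.38 and 6.73. The part that cell makeup has in this was not tested.

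Foxo3 was on average lower in the knockout-labelled arrays by its 2 brighter probe sets, without passing the adjusted test. Probe set 1434831_a_at measured 7.61, 7.15, 8.18 and 7.36 in knockout arrays 11 to 14 and 8.20, 8.21, 8.15 and 7.505 in wild-type arrays 3, 5, 7 and 9. Wild-type arrays 3, 5 and 7 lay close together, wild-type array 9 lay with the knockout arrays, and knockout array 13 lay with the wild type. The difference was -0.44 (SE 0.25, limma adjusted p = 0.860, exact permutation p = 0.200). It was -0.64 without knockout array 13 and -0.30 without knockout array 12.

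The second Foxo3 probe set, 1434832_at, measured 6.45, 6.10, 6.42 and 6.41 in the knockout-labelled arrays and 6.85, 6.80, 7.01 and 6.32 in wild type. Here all 4 knockout arrays lay below 3 of the 4 wild-type arrays, and wild-type array 9 was again the exception. Its difference was -0.40 (SE 0.17), at an unadjusted limma p of 0.0427 and an adjusted p of 0.860, and without wild-type array 9 it was -0.54. Probe set 1450236_at is dim, at 4.29 ± 0.24 (SD, n = 4) in the knockout-labelled arrays and 4.22 ± 0.06 in wild type, and differed by 0.07 (SE 0.14).

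**Figure D2:**
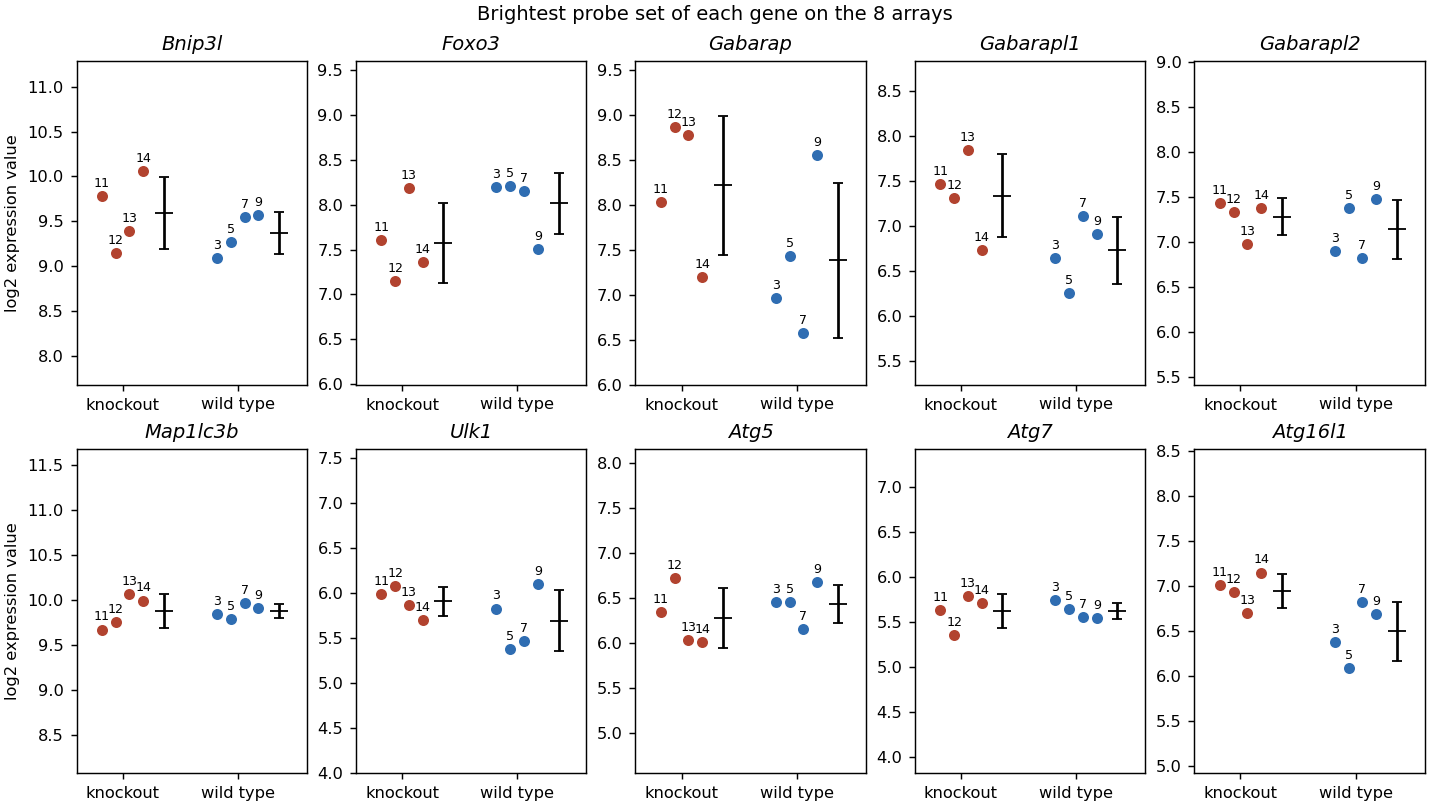
Log2 expression value of the brightest probe set of each gene, each panel spanning the same number of log2 units. Points are arrays, numbered by replicate, and the black mark is the mean with its SD (n = 4 per group). The groups overlap in every panel; Gabarap spreads over 2.29 log2 units and Map1lc3b over 0.40.

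The ATG8 family covered the whole range from steady to variable. Gabarap, whose protein binds to autophagosome membranes and takes part in receptor traffic, had the largest difference of any member and also the largest spread. It measured 8.03, 8.87, 8.78 and 7.20 in knockout arrays 11 to 14 and 6.97, 7.43, 6.58 and 8.56 in wild-type arrays 3, 5, 7 and 9. Knockout array 14 lay among the wild-type values and wild-type array 9 among the knockout values. The difference was 0.83 (SE 0.49), a 1.78-fold higher geometric mean, with an adjusted p of 0.860 by limma and an exact permutation p of 0.200. It ran from 0.57 without wild-type array 7 to 1.23 without wild-type array 9. Its SD over the 8 arrays, 0.88, exceeded that of 98.0% of all probe sets. The authors' deposited q for it, 0.0317, and the limma result thus differ in their call on the same arrays.

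Gabarapl1, a close relative of Gabarap, was higher on average by both of its probe sets. Probe set 1416419_s_at measured 7.46, 7.31, 7.85 and 6.73 in the knockout-labelled arrays and 6.65, 6.25, 7.11 and 6.91 in wild type. Knockout arrays 11, 12 and 13 lay above all wild-type arrays, and knockout array 14 lay within them. The difference was 0.61 (SE 0.26), at an unadjusted limma p of 0.0461, an adjusted p of 0.860 and an exact permutation p of 0.0857. The ending of this probe set's name marks probes that can match more than one transcript family. The dimmer probe set 1416418_at showed the same order of groups, at 4.81, 4.84, 4.90 and 3.63 against 3.90, 3.69, 3.91 and 4.40, with a difference of 0.57 (SE 0.30). Without knockout array 14 the differences were 0.81 and 0.87 (limma adjusted p = 0.568 for both), and without wild-type arrays 3 and 5 they were 0.33 and 0.39. Each step took out the lowest values of a group, which by arithmetic alone moves the difference that way.

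Map1lc3b, which encodes LC3B, the ATG8 protein most used as a marker of autophagosomes, was steady by its brightest probe set. That probe set, 1415930_a_at, measured 9.67, 9.76, 10.07 and 9.99 in the knockout-labelled arrays and 9.84, 9.79, 9.96 and 9.91 in wild type. All 8 values lay within 0.40 log2 units, and their SD was at the 10.1 percentile of all probe sets. The difference was -0.01 with a 95% interval from -0.30 to 0.29 (limma). The next brightest, 1415928_a_at, differed by 0.15 (SE 0.20).

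Probe set 1415929_at of the same gene behaved otherwise. It measured 7.59, 7.90, 7.64 and 7.05 against 6.31, 6.59, 7.33 and 7.86, a difference of 0.52 (SE 0.34). Wild-type arrays 3 and 5 were the 2 lowest, and without them the difference was -0.05. Leaving out the lowest wild-type values can only lower the difference. The dim 1428024_at differed by -0.20 (SE 0.13). Gabarapl2, which encodes GATE-16, measured 7.44, 7.34, 6.98 and 7.38 in the knockout-labelled arrays and 6.90, 7.37, 6.82 and 7.48 in wild type, with a difference of 0.14 (95% interval -0.28 to 0.57). It ran from 0.035 without wild-type array 7 to 0.25 without wild-type array 9.

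**Figure D3:**
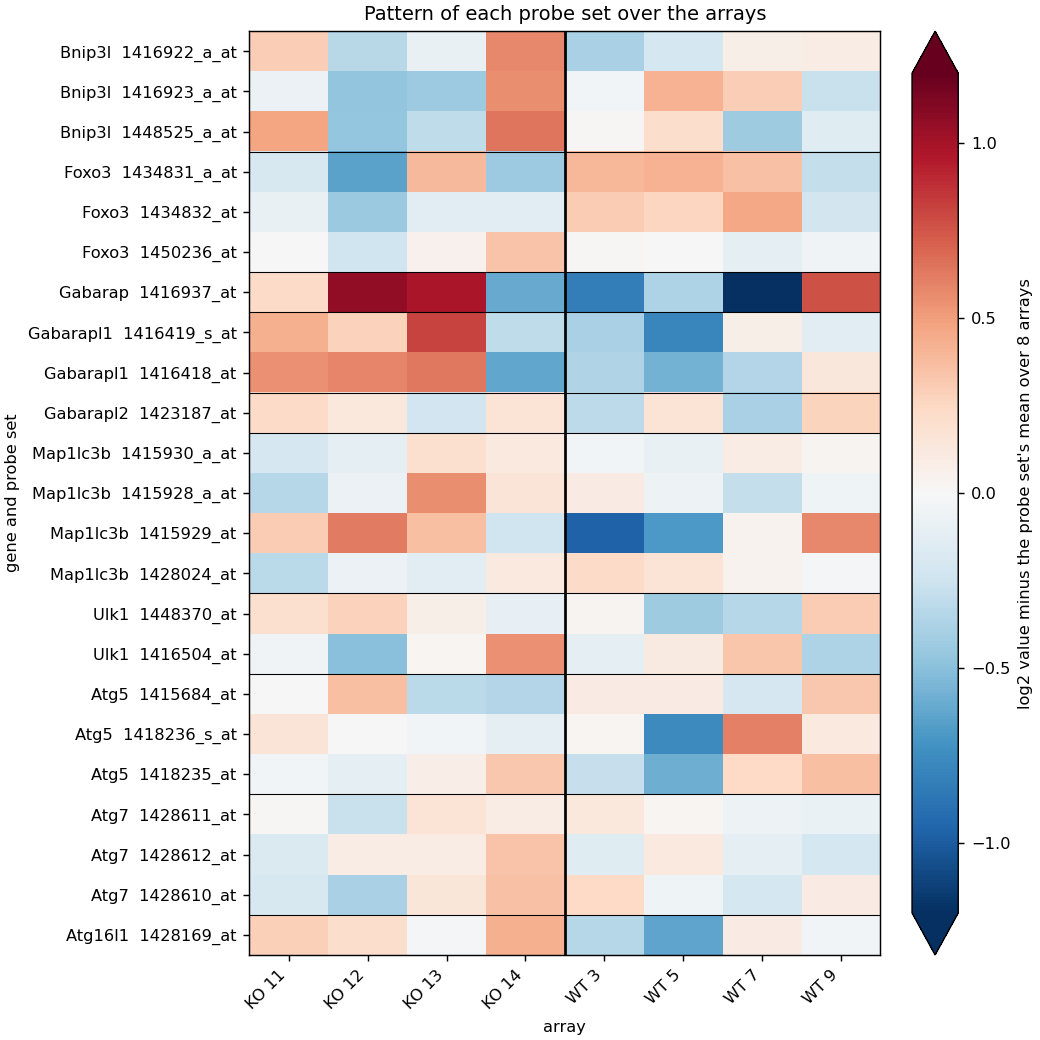
Each row is a probe set and each column an array; colour is the log2 value minus that probe set's mean over the 8 arrays, and the thick line parts the knockout-labelled arrays (KO) from wild type (WT). Knockout array 14 holds the highest value in 8 of the 23 rows and knockout array 12 the lowest in 8, and rows of one gene can run in opposite directions, as for Map1lc3b and Atg5.

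Ulk1, the kinase gene at the start of the pathway, gave small differences. Its brighter probe set, 1448370_at, measured 5.98, 6.07, 5.86 and 5.70 in knockout arrays 11 to 14 and 5.82, 5.37, 5.46 and 6.10 in wild-type arrays 3, 5, 7 and 9. The values interleaved, with wild-type array 9 the highest of all 8. The difference was 0.21 (SE 0.18, limma adjusted p = 0.891), and it ran from 0.11 without wild-type array 5 to 0.35 without wild-type array 9, with 0.14 without wild-type array 7. The other, 1416504_at, differed by 0.02 (SE 0.24), and its values were 4.08 to 5.13.

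Of the 3 conjugation genes, Atg16l1 alone had a probe set at an unadjusted p under 0.05. Atg16l1 measured 7.01, 6.94, 6.70 and 7.15 in the knockout-labelled arrays and 6.38, 6.09, 6.83 and 6.69 in wild type. Of the 4 knockout arrays, 3 lay above every wild-type array, and knockout array 13 lay between wild-type arrays 9 and 7. The difference was 0.45 (SE 0.18, unadjusted limma p = 0.0362, adjusted p = 0.860, exact permutation p = 0.0571). Wild-type arrays 3 and 5 were the lowest of the 8, and without them the difference was 0.19. Leaving out the lowest wild-type values can only make a positive difference smaller, so this fall is no separate result.

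The differences of Atg5 and Atg7 were small beside their errors. The brightest probe set of Atg5, 1415684_at, measured 6.35, 6.72, 6.04 and 6.01 against 6.46, 6.46, 6.15 and 6.68, a difference of -0.16 (95% interval -0.59 to 0.28). It ran from -0.30 without knockout array 12 to -0.066 without knockout array 14. Its other probe sets differed by 0.01 and 0.13, and 1418236_s_at reached from 5.41 in wild-type array 5 to 6.77 in wild-type array 7, so that a single group held the whole range. Atg7, the activating enzyme gene, measured 5.64, 5.35, 5.79 and 5.72 against 5.75, 5.65, 5.56 and 5.55 by 1428611_at. The difference was -0.0014 with an interval from -0.30 to 0.30, and the other 2 probe sets differed by 0.17 and -0.04.

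Of the 23 member probe sets, 6 had a mean under 5.14, the median of all probe-set means, with 1 each for Foxo3, Gabarapl1, Map1lc3b, Ulk1, Atg5 and Atg7. How far such values lie above background was not measured here. In all, 14 of the 23 had an SD over the 8 arrays above the median of all probe sets (0.32 as the members' median and 0.28 for all). Probe sets of one gene had differences of both signs for Bnip3l, Foxo3, Map1lc3b, Atg5 and Atg7.

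The wider autophagy list had no gene past the adjusted test. Of 83 genes listed, 68 had a probe set with a single symbol, each gene taken by its brightest one. By limma 0 of the 68 passed an adjusted p of 0.05, as did 0% of all 12393 genes. The unadjusted p was under 0.05 for 8 higher genes (3.45% of all genes) and 3 lower ones (1.65%), together 16.2% of the list and 5.11% of all genes. The groups did not overlap in 5 of the 68, and in 2.61% of all genes. The median difference was 0.06 beside 0.02 for all genes. Without wild-type arrays 3 and 5 the 11 genes became 0, and the share of all 12393 genes under that p was 1.76%. The count was 4 without wild-type array 3 alone (2.70% of all genes) and 5 without wild-type array 5 alone (2.78%).

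**Figure D4:**
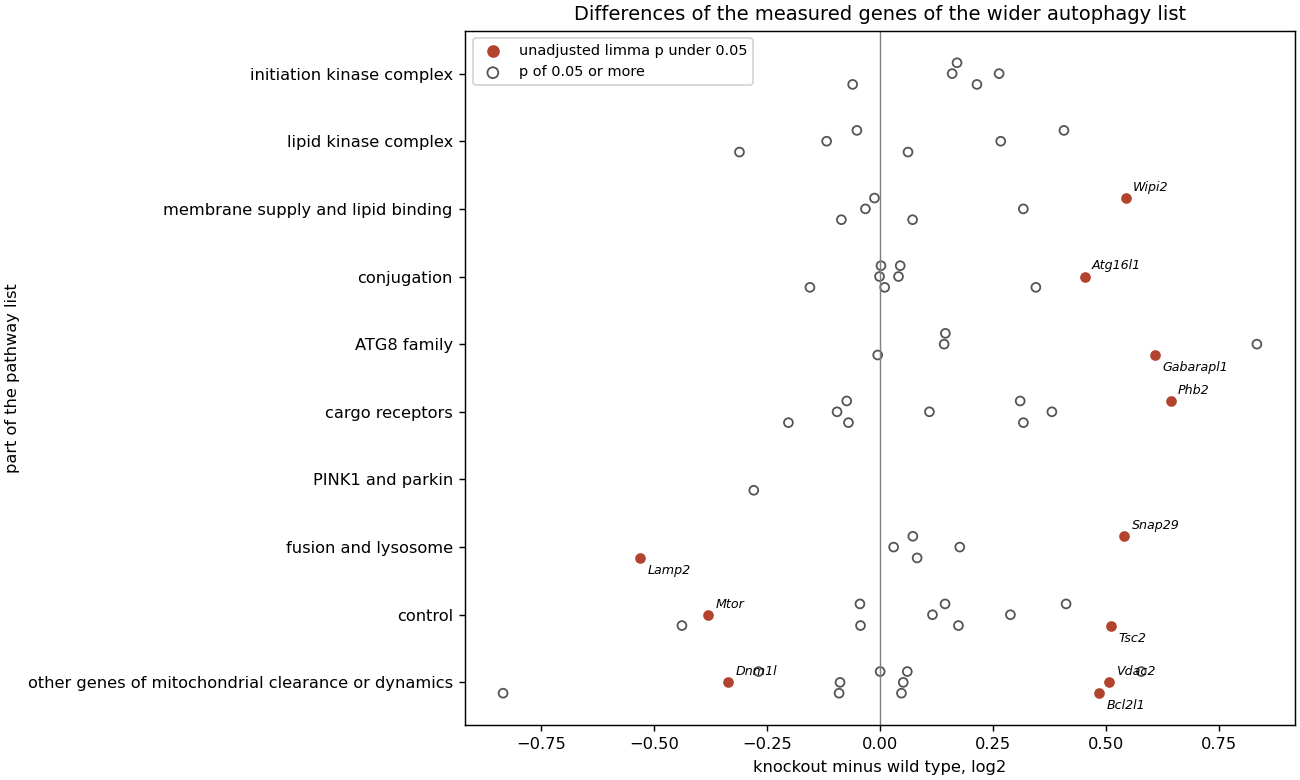
Knockout minus wild type difference (log2) of the 68 measured genes of the wider list, by part of the pathway and spread vertically for legibility; filled points have an unadjusted limma p under 0.05 and are named. The 11 filled points lie in 7 parts of the list, and none passed the adjusted test.

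In the list, 5 genes that are no members had groups that did not overlap. Lamp2, a main protein of the lysosomal membrane, measured 10.49, 10.47, 10.41 and 9.97 in knockout arrays 11 to 14 and 11.06, 11.18, 10.56 and 10.67 in wild-type arrays 3, 5, 7 and 9, a difference of -0.53 (SE 0.19). Mtor, the kinase that holds autophagy back, lay at 7.11 to 7.23 in the knockout-labelled arrays and 7.34 to 7.78 in wild type (-0.38, SE 0.13). Tsc2, which restrains that kinase, lay at 4.29 to 4.59 and 3.64 to 4.17 (0.51, SE 0.16), a dim signal.

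Wipi2, which recruits ATG16L1 to the forming membrane, lay at 6.72 to 7.10 in the knockout-labelled arrays and 5.80 to 6.68 in wild type (0.54, SE 0.20). Dnm1l, the mitochondrial fission enzyme gene, reached 8.94 at most in the knockout group and 9.16 in wild type (-0.34, SE 0.14). Groups that do not overlap always give an exact permutation p of 0.0286, the smallest that 4 against 4 arrays can give. That value was thus fixed by how these 5 were picked. Each had an adjusted limma p of 0.860. Of the list genes whose groups overlapped, those of smallest p were Phb2, an inner mitochondrial membrane receptor (0.64, SE 0.21), the fusion gene Snap29 (0.54, SE 0.18) and Bcl2l1 (0.48, SE 0.18), which encodes BCL-XL.

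By part, the initiation kinase complex had 5 of 5 genes measured and a median of 0.17, with 0 under an unadjusted p of 0.05. The lipid kinase complex around Becn1 had 6 of 6, a median of 0.01 and 0 likewise. Conjugation genes had 8 of 11 measured, a median of 0.03 and 1 under that p, Atg16l1. Cargo receptors had 9 of 12, a median of 0.11 and 1 (Phb2), and the ATG8 family 5 of 5, a median of 0.14 and 1 (Gabarapl1). Fusion and lysosome genes had 6 of 8 and 2, in opposite directions. Control genes had 10 of 14 and 2, also in opposite directions. Membrane supply genes had 6 of 7, a median of 0.03 and 1 (Wipi2), and of Pink1 and parkin only Pink1 was measured, at -0.28. Other genes of mitochondrial clearance or dynamics had 12 of 13, a median of 0.02 and 3, of which Bcl2l1 and Vdac2 were higher and Dnm1l lower.

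Levels of other yolk sac cell types differed between arrays beside these genes. Endothelial markers, 14 of 14 measured with 12 of them higher on average in the knockout-labelled arrays, had a mean level of 6.55, 6.90, 6.45 and 6.05 in knockout arrays 11 to 14 and 5.89, 5.83, 6.01 and 6.47 in wild-type arrays 3, 5, 7 and 9. The arrays out of place for Gabarap were out of place here too: knockout array 14 was the lowest of its group and wild-type array 9 the highest of the wild type. Mesenchyme and mesothelium markers (12 of 12 measured, 7 higher) ran from 8.01 in knockout array 14 to 9.79 in knockout array 12. In wild type they ran from 8.53 in array 3 to 9.22 in array 9. Visceral endoderm markers (14 of 15 measured, 2 higher) were also lowest in knockout array 14 (7.03) and, within wild type, highest in array 9 (9.67). The placing of these arrays was thus not particular to the endothelial list, though not every list had it. Macrophage markers (11 of 11 measured, 10 higher) were at 5.55 to 5.88 and 5.22 to 5.61. Within their groups they were lowest in knockout array 14 and in wild-type array 9. Megakaryocyte markers (5 of 6, 3 higher) were at 6.19 to 7.55 and 6.21 to 7.74, lowest in knockout array 13 and highest in wild-type array 7. Of the 10 erythroid markers measured, 4 were higher. Of all probe sets, 52.2% had a difference above 0. Log2 values of this kind have no 0, so no marker can be called absent. The part of these cells in the differences of Gabarap, Gabarapl1 and Atg16l1 was not tested.

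**Figure D5:**
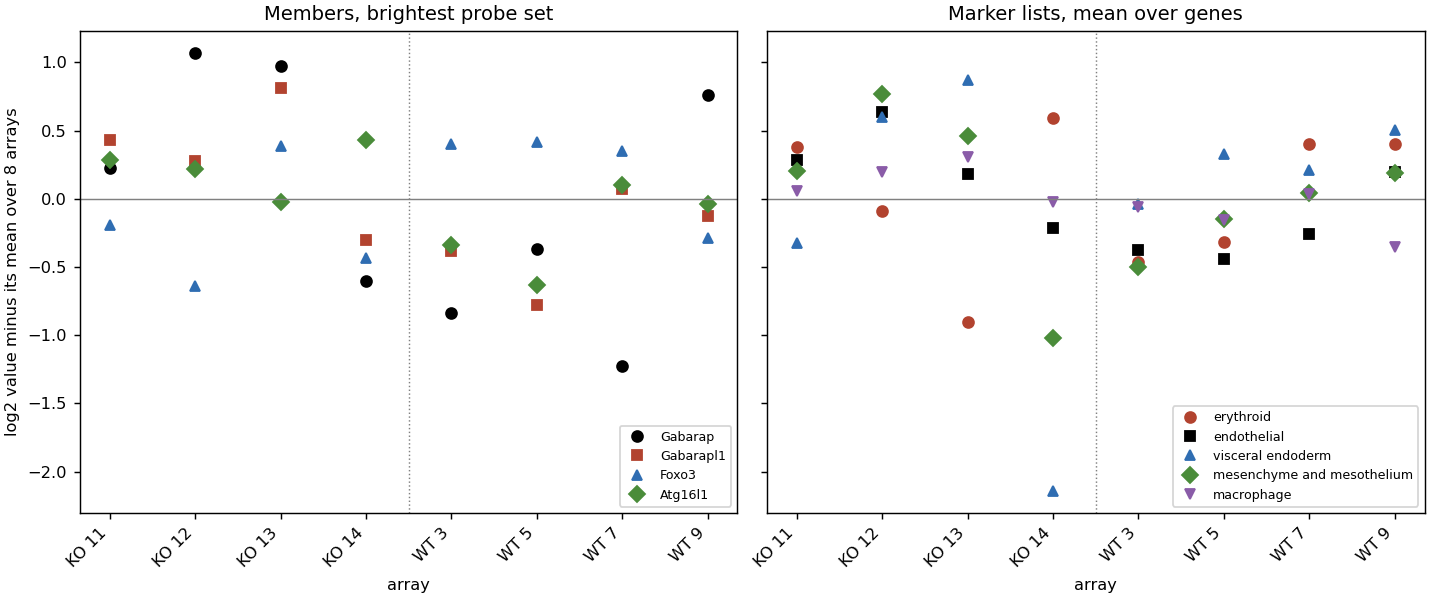
Left, log2 values of 4 members by their brightest probe set and, right, the mean log2 level of 5 marker lists, each minus its own mean over the 8 arrays, for the knockout-labelled arrays (KO) and wild type (WT). Gabarap, the endothelial list and the mesenchyme and mesothelium list are each lowest of the knockout group in knockout array 14. Each is highest of its group in knockout array 12 and in wild-type array 9. The visceral endoderm list drops to 7.03 in knockout array 14 and is highest of the wild type in array 9, at 9.67. The macrophage list is lowest of the wild type in array 9, at 5.22.

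Genes most like the 4 most variable members over the 8 arrays were found by the root mean square difference of values centred on each probe set's mean. Gabarap (SD 0.88) was nearest to Haus7 (0.29 log2 units), Krt19 (0.29) and Pkm (0.30). Krt19 encodes an epithelial keratin and Pkm a glycolytic enzyme. Gabarapl1 (SD 0.51) was nearest to 4931406C07Rik (0.14), Grhpr (0.17) and Acaa2 (0.17), and Foxo3 (SD 0.43) to Neat1 (0.18), Tm9sf2 (0.18) and Psat1 (0.20). Atg16l1 (SD 0.35) was nearest to Bcl2l1 (0.07), Dctn6 (0.08) and Timmdc1 (0.09). These are the nearest of 12393 genes over 8 points that share arrays, so they are a description only.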

How the data were processed

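RNA of 8 captures was measured on Affymetrix mouse arrays. The authors deposited 1 normalised log2 value per probe set and array; GCOS, RMA and the affy package are named per the submitters' processing notes, with no version. The authors also deposited a score (S-score) per probe set and, beside it, its p-value and q-value, whose making and direction are not given in the sources used here. Values were used as deposited, with no filter. The test was limma 3.58.1, run in R 4.3.3 (lmFit, eBayes, no covariate) on all 22626 probe sets and 8 arrays, with Benjamini-Hochberg adjustment and a threshold of 0.05. Single values also had an exact two-sided permutation test. The fit was also run on simulated data with independent noise for each probe set and array. Such data hold no shifts shared by many probe sets, so they cannot show how the fit handles such shifts here. Symbols came from the platform annotation, where 20380 probe sets have 1 symbol, 691 several and 1555 none. Of those with 1, 20351 matched the GRCm38.p6 gene table by identifier and 0 changed name.

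Precision is set by having 4 arrays a group. Members, pathway list and marker lists were chosen with earlier results of these data known. The rule for names was all members by every probe set, then pathway genes whose groups did not overlap and those of smallest p, up to 8, and 3 alike genes for each of the 4 most variable members. Bnip3l, which has no probe set of its own symbol alone, is given by its shared ones. Alternatives were quantile normalisation, median centring, a filter on dim probe sets, trend and robust fitting, array weights, means over probe sets, and arrays left out; leaving out knockout arrays 13 and 14, or the Bnip3l probe sets, was chosen after seeing the data. Promoters came from RefSeq, and figures were drawn with matplotlib.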

Additional observations from a re-analysis of the deposited data

Results flagged for a closer look

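In 3 of the 46 groups of 4 arrays examined (23 probe sets, both groups), one array lay far from the other 3, by Dixon's gap test at 95%; chance alone flags about 1 group in 20. For Foxo3 1434831_a_at, wild-type array 9 lay at 7.505, while the next wild-type value was 8.15. For Foxo3 1434832_at, knockout array 12 lay at 6.10 and the next at 6.41. For Gabarapl1 1416418_at, knockout array 14 lay at 3.63 and the next at 4.81.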

How the results depend on the processing

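By limma, 0 member probe sets passed an adjusted p of 0.05 under all 17 alternatives, as on the 8 arrays as deposited. The 3 probe sets at an unadjusted p under 0.05 became 1 with quantile normalisation (6.29% of all probe sets) and 1 with median centring (5.54%). They became 0 of 17 with dim probe sets left out (5.23% of those kept) and 0 with eBayes trend and robust fitting (5.44%). With array weights they became 6 (11.2%), and with 1 averaged value per gene 1 of 10 (4.91% of all genes). Without wild-type arrays 3 and 5 they became 0, where 1.88% of all probe sets were under that p. With each array left out in turn they became 0 to 5. The count was 0 without knockout array 11 (4.73%) or 12 (4.42%) or wild-type array 3 (2.82%) or 5 (3.01%). It was 5 without wild-type array 9 (8.67%). Groups that did not overlap went from 0 to 5 of 23 without knockout arrays 13 and 14, where 26.7% of all probe sets did not overlap, and to between 0 and 3 with each array left out (3 without knockout array 14, beside 8.12% of all probe sets). The median difference of 0.13 became 0.036 without wild-type arrays 3 and 5, 0.042 without knockout arrays 13 and 14, and 0.039 (knockout array 14 left out) to 0.16 with each array left out. The 11 pathway genes became 14 with array weights (11.2% of all genes), 8 with quantile normalisation (6.13%), 8 with median centring (5.17%), 7 of 60 without dim probe sets (4.81%), 6 with trend and robust fitting (4.63%), 5 with means over probe sets (4.91%), 0 without wild-type arrays 3 and 5 (1.76%), and 4 to 12 with each array left out (4 and 5 on leaving out wild-type array 3 and array 5). Signs turned for differences near 0: Map1lc3b was 0.12 with means over probe sets and -0.071 to 0.062 with each array left out, Atg7 was 0.044 with means over probe sets, 0.069 without wild-type arrays 3 and 5 and -0.056 to 0.089 with each array left out, and Atg5 was 0.10 without knockout arrays 13 and 14. The cause of these shifts was not tested. The other 7 genes kept their sign under all 16 alternatives, by the brightest probe set or the mean over probe sets. Their dimmer probe sets did not all do so. Ulk1 1416504_at was 0.02 as deposited, -0.13 with array weights and -0.16 without knockout array 14. Bnip3l 1448525_a_at was 0.17 as deposited and -0.01 without knockout array 14. No paired analysis was possible because the groups share no replicate number.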

Other observations

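Among pathway genes outside the members, 3 stood out in knockout array 13, and were picked after their values were seen. Bnip3, the relative of Bnip3l known to respond to low oxygen, measured 11.46 there, 8.54 to 9.22 in the other knockout-labelled arrays and 9.30 to 9.83 in wild type. Atg12, whose protein is joined to ATG5, measured 8.26 there and 6.86 to 7.18 in the other 7 arrays. Opa1, which fuses inner mitochondrial membranes, measured 4.43 there and 5.48 to 6.93 elsewhere. Knockout array 13 also had the highest Klf2 value (7.15) and the lowest erythroid marker mean (9.41), and of the 8 arrays it had the highest visceral endoderm (10.04) and macrophage (5.88) marker means; their part in these values was not tested. For Sqstm1, the cargo receptor p62, knockout arrays 12 and 13 were at 6.65 and 6.80, and the other 6 arrays at 5.66 to 6.23.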
